A study of Homo sapiens with 2 samples.

Results

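LSD1 (KDM1A, lysine-specific demethylase 1) peaks with their midpoint in an intron of a protein-coding gene, more than 1 kb and up to 10 kb from the nearest coding transcription start site, numbered 2283 among the 20110 peaks of the series (11.4%, interval 10.9 to 11.8). They are called near-start intronic peaks here. The midpoint of each listed peak was placed on hg19 with GENCODE 44, outside the exons of all coding genes, so neither the score nor the width of a peak took part in the choice. The peaks came from PC-3M-luc cells, a luciferase-marked human prostate carcinoma line of metastatic PC-3 origin, with the genotype labelled Control and no treatment among the labels. Chromatin immunoprecipitation with an Abcam antibody to LSD1, followed by sequencing, gave 1 library, and 1 input library of the same cells is its background. The authors deposited a single peak list with a score per peak and no read numbers, so read depth is unknown here. Each arm had 1 library, which leaves all values without a check between replicates and without p-values. Intervals are at 95%, exact binomial for shares, exact Poisson for densities, order-statistic for medians and Newcombe's for differences of shares, and cover counting error only.

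LSD1 removes methyl groups from mono- and dimethylated lysine 4 of histone H3, marks found at enhancers and promoters. It acts within CoREST and NuRD corepressor complexes that also carry histone deacetylases. The first introns of mammalian genes are rich in enhancers and in alternative promoters. AP-1, the dimer of FOS and JUN proteins, is a frequent resident of such distal elements in epithelial cancer cells, whereas ETS and SP/KLF factors bind mainly at CpG-rich promoters.

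The AP-1 core TGACTCA, or TGAGTCA on the other strand, was the motif with the highest share over intron sequence of equal GC content, and 5 of the highest-scoring near-start intronic peaks that hold it within 100 bp of the midpoint are shown for that reason. Each line gives the 200 bp at the midpoint on the plus strand of hg19, with the AP-1 core in capitals.
LAMTOR1: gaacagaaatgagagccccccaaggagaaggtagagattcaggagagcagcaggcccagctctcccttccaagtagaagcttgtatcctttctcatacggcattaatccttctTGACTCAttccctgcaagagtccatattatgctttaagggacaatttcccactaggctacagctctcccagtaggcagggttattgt
VCL: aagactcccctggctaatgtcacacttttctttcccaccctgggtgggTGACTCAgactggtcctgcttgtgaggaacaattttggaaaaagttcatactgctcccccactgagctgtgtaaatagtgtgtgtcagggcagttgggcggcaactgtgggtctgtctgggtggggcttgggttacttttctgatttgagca
WDR54: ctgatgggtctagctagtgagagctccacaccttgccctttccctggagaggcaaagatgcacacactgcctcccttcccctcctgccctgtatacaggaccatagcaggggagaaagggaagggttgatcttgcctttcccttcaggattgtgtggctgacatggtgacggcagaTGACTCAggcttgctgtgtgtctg
ESYT1: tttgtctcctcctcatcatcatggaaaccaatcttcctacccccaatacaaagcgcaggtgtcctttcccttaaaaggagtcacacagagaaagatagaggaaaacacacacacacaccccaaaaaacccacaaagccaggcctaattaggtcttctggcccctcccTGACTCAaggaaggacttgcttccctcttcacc
HAS3: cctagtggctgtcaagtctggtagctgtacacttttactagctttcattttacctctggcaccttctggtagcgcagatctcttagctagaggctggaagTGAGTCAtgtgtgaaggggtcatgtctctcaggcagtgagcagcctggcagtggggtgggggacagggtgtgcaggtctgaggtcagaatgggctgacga

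At LAMTOR1, a scaffold of the lysosomal Ragulator complex, the window is chr11:71812803-71813002 in intron 1, under a peak of 4908 bp with a score of 889.09. VCL encodes vinculin, which couples focal adhesions to actin, and its window is chr10:75759191-75759390 in intron 1, under a peak of 5042 bp with a score of 872.68. The remaining windows are chr2:74651855-74652054 at WDR54 (score 862.14), chr12:56523449-56523648 at ESYT1, a tether between endoplasmic reticulum and plasma membrane (806.72), and chr16:69147128-69147327 at HAS3, a hyaluronan synthase (697.13). The core lay 3 bp from the midpoint at HAS3, 16 bp at LAMTOR1 and 49 to 79 bp at the others. The HAS3 peak was 16394 bp wide, so a midpoint there says little of where LSD1 was bound; no summits were used here. Of the 5 peaks, those at LAMTOR1, VCL, ESYT1 and HAS3 extended to within 1 kb of a start, and that at WDR54 did not.

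Another 6 motifs had a share in these peaks at least 1.5-fold that of all intron windows near starts, and each is shown in 1 or 2 of the highest-scoring peaks that hold it, as 61 bp of the plus strand of hg19 with the motif of either strand in capitals. They are CCGGAAG of ETS factors, GGGCGG of SP/KLF factors, GGGTGTG of KLF factors, the MYC E-box CACGTG, a short CTCF core and the partial REST element CAGCACC.
LONP1, ETS: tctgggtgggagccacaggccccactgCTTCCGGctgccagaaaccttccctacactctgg
SFPQ, ETS: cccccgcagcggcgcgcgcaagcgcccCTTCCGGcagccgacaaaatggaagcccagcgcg
CCND1, SP/KLF: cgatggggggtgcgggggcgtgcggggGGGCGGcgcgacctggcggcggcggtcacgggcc
MAMDC4, KLF: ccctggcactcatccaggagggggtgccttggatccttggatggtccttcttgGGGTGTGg
FASTK, KLF: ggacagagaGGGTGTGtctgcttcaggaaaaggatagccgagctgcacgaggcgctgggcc
ABHD12, MYC E-box: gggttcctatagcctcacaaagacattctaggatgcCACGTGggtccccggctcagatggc
RPL35, MYC E-box: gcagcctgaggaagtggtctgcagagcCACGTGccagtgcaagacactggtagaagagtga
CDT1, CTCF: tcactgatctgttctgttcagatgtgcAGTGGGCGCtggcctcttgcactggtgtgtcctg
ZC3H4, CTCF: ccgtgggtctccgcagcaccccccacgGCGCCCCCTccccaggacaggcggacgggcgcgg
LONP1, REST: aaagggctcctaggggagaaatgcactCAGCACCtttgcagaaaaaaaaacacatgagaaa
RNF187, REST: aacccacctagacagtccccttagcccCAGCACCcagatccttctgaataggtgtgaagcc

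The ETS stretches are chr19:5695707-5695767 at LONP1 and chr1:35657693-35657753 at SFPQ, and the SP/KLF one is chr11:69457724-69457784 at CCND1. The KLF stretches are chr9:139748846-139748906 at MAMDC4 and chr7:150775533-150775593 at FASTK, and those with the MYC E-box are chr20:25280295-25280355 at ABHD12 and chr9:127622266-127622326 at RPL35. The CTCF core was found at chr16:88873979-88874039 at CDT1 and chr19:47615320-47615380 at ZC3H4, and the REST element at chr19:5695595-5695655 at LONP1 and chr1:228676428-228676488 at RNF187. LONP1 is a mitochondrial protease, SFPQ a splicing factor, CCND1 cyclin D1, RPL35 a ribosomal protein and CDT1 a licensing factor of replication origins. With the exception of ABHD12, the peaks extended to within 1 kb of a start. The GC content of the 200 bp at the midpoint was 78% at SFPQ, 76.5% at ZC3H4 and 75% at CCND1, above the promoter median of 67%, and 53.5% to 65.5% at the others.

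Intronic LSD1 peaks became sparser with distance from a start. Near-start introns hold 272 Mb, or 9.51% of non-gap sequence, and carried 8.4 peaks per Mb (interval 8.06 to 8.75), against 1.91 per Mb in deep introns over 10 kb from a start (1.82 to 2.01), a ratio of 4.39 (4.12 to 4.68). Exons away from promoters had 22.4 peaks per Mb and promoters, the sequence within 1 kb of a start, had 139. Within the near-start introns the density was 13.3 per Mb at 1 to 2 kb, 10.3 at 2 to 3 kb, 8.4 at 3 to 5 kb, 6.92 at 5 to 7.5 kb and 5.81 at 7.5 to 10 kb. It went on falling through deep introns, with 3.97 per Mb at 10 to 20 kb, 2.29 at 20 to 50 kb and 0.749 beyond, so the limit of 10 kb marks no step.

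**Figure D1:**
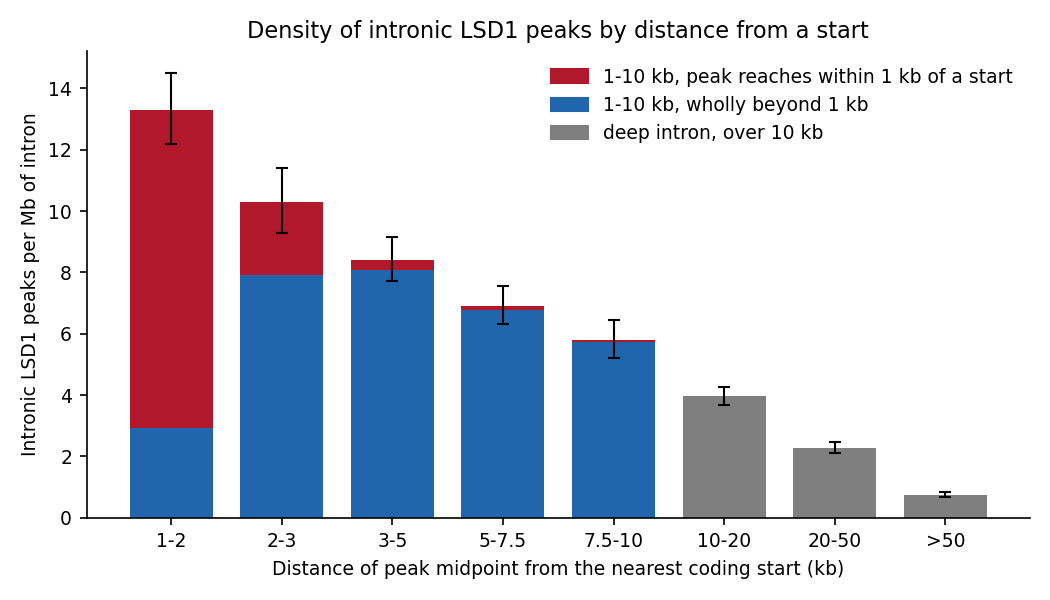
Intronic LSD1 peaks per Mb of intron (vertical axis) by distance of the midpoint from the nearest coding start (horizontal axis, kb), with exact Poisson 95% intervals on the whole bars. Red marks near-start intronic peaks that reach within 1 kb of a start, blue those wholly beyond it, and grey deep intronic peaks; density declined from 13.3 per Mb at 1 to 2 kb to 0.749 per Mb beyond 50 kb.

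The near-start intronic peaks were of 2 kinds. In 531 of them (23.3%) some base of the peak lay within 1 kb of a coding start, and 295 of these covered a start outright. The other 1752 lay wholly beyond 1 kb. The 531 are said here to reach a start, whether or not they covered it. Every midpoint lay beyond 1 kb, so the width needed for this rose with distance from the start. This division selects on width, and on score as far as score follows width. The values of the 2 kinds are therefore a description. The peaks that reached a start had a median width of 3581 bp (interval 3206 to 3901) and a median score of 382 (286 to 477). Those wholly beyond had a median width of 1268 bp (1224 to 1308) and a median score of 80.3 (78.4 to 82.8), close to the 1315 bp and 81.4 of deep intronic peaks. Over all near-start intronic peaks the medians were 1427 bp and 92.4, against 1828 bp and 389 for promoter peaks. Scores are those the authors deposited, read here as the peak caller's transform of a p-value, and are used for rank and description inside the list.

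Peaks that reach a start lay mostly in the first 3 kb. They made up 77.9% of near-start intronic peaks at 1 to 2 kb, 23.1% at 2 to 3 kb and 1.13% at 7.5 to 10 kb. Peaks wholly beyond 1 kb had 2.94 per Mb at 1 to 2 kb, 7.91 at 2 to 3 kb, 8.08 at 3 to 5 kb and 5.74 at 7.5 to 10 kb. A peak centred just beyond 1 kb reaches the start unless it is very narrow. Both series therefore follow in part from the division. The low density of 2.94 cannot be read as a lack of peaks, since all near-start intronic peaks together had 13.3 per Mb there. Over all near-start introns the density of peaks wholly beyond 1 kb was 3.37-fold that of deep introns (interval 3.15 to 3.61). A score of at least 1000 was found in 136 of the 531 that reached a start (25.6%) and in 22 of the 1752 wholly beyond (1.26%), against 33 of 1688 deep intronic peaks (1.95%). The difference between the peaks wholly beyond and the deep ones was -0.699 percentage points (-1.59 to 0.15), where the division had taken wide peaks from the first group and not from the second. Score and width rose together over the near-start intronic peaks (Spearman's rho 0.74, n = 2283 peaks of 1 library), and so they did over those wholly beyond 1 kb (rho 0.64, n = 1752). The rank correlation of score with distance was -0.16 over all of them and 0.09 over those wholly beyond.

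**Figure D2:**
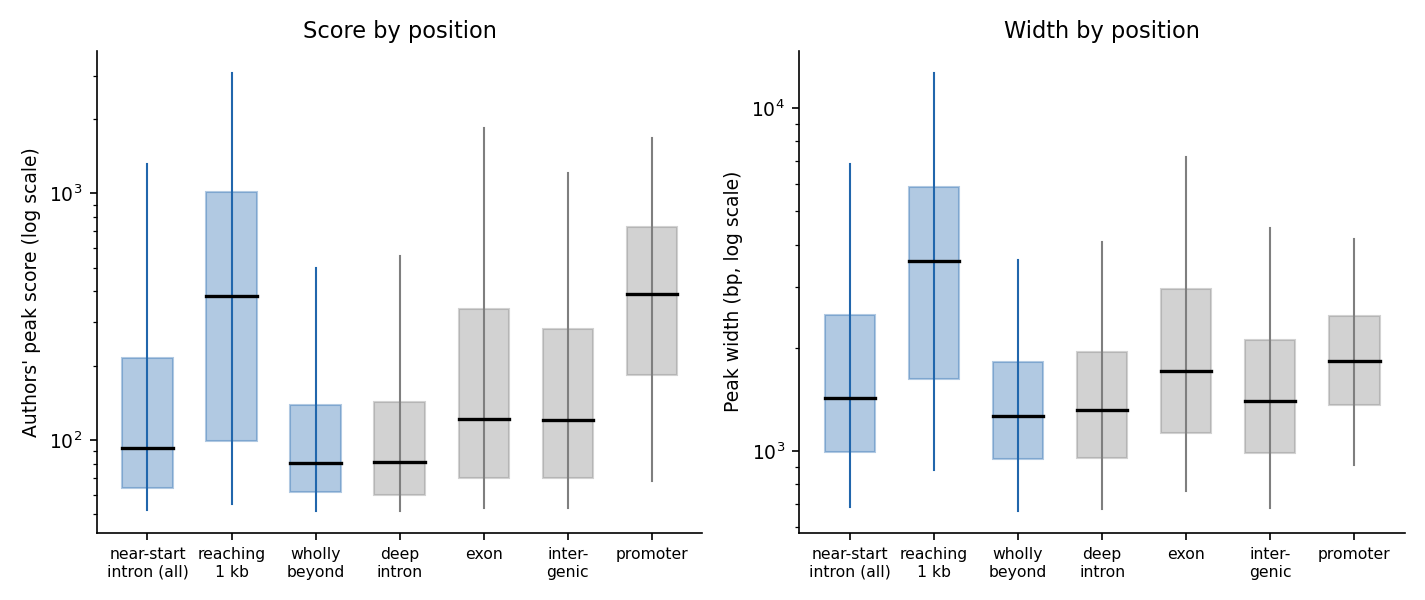
The authors' peak score and the peak width in bp (vertical axes, log scale) by position of the midpoint, with near-start intronic peaks and their 2 kinds in blue and other positions in grey. Boxes span the quartiles, black lines mark medians and thin lines run from the 5th to the 95th percentile; peaks that reach within 1 kb of a start (median 382 and 3581 bp) and those wholly beyond (80.3 and 1268 bp) were divided by their extent, so the gap in width is built into the division.

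Median score was lower inside than outside the limit of 1 kb and similar on both sides of the limit of 10 kb. The member nearest to 1 kb lay at 1001 bp in ASPSCR1 with a score of 50.11, and the nearest peak left out, centred in a gene at 1000 bp (chromosome 20, 30306442 to 30312261), scored 1683.98. The member nearest to 10 kb lay at 9968 bp in EMC3 (score 85.62), and the nearest peak left out at 10005 bp in NOP14 (59.03). Between 1000 and 1200 bp, 144 members had a median score of 198 and width of 2656 bp, against 331 and 2918 bp in 185 intronic peaks between 800 and 1000 bp. Between 9 and 10 kb, 143 members had a median score of 90.4, against 85.1 in 101 peaks between 10 and 11 kb.

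The highest-scoring near-start intronic peaks were wide peaks that in most cases covered a start. The score of exactly 3100 was shared by 26 of them and exceeded by 3, so ranks among the 26 carry no information. Whether the 3 rank above the 26 is also unknown, since a value shared so often may be a ceiling of the score. Of these 29, 27 covered a start. The 15 at the head of the list, with ties resolved by width, were in the genes below, and 14 of them covered a start.

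CTHRC1, a secreted glycoprotein of matrix remodelling, had the highest listed score (3147.38), under a peak of 5790 bp. Its midpoint lay 1448 bp downstream of the nearest start and 2343 bp downstream of the canonical start. FLNA, which encodes the actin crosslinker filamin A, followed with 3132.47 (chromosome X, 153596291 to 153600450), with its midpoint in intron 2, 4631 bp downstream of the canonical start, and covered an alternative start. The higher of 2 promoter peaks of FLNA scored 150.29. A peak of 6620 bp in ABHD12, a lysophospholipid lipase, scored 3112.45 (chromosome 20, 25276946 to 25283565). Its midpoint lay 9772 bp downstream of a start of the neighbouring PYGB, brain-type glycogen phosphorylase, and it was the member of the 15 that reached no start.

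The remaining 12 all had a score of 3100 and covered a start. Widths ran up to 23462 bp at SSTR5, a somatostatin receptor (chromosome 16, 1113501 to 1136962). Next in width were SQSTM1, the autophagy receptor p62 (16715 bp, chromosome 5, 179244872 to 179261586), AHNAK2 (15862 bp), MAMDC4 (15233 bp), ST3GAL1, a sialyltransferase (14131 bp), LONP1, the mitochondrial protease shown above (11623 bp), and ZFP36L1, a factor of mRNA decay (10723 bp). PCGF3, a Polycomb subunit, had 9922 bp and COX20, an assembly factor of cytochrome c oxidase, had 9008 bp. The ribosomal protein genes RPL8, RPS12 and RPL12 completed the set with 9803, 9511 and 9073 bp. At 11 of the 15 no other peak was centred within 1 kb of a start of the gene.

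Peaks wholly beyond 1 kb were chosen for naming by their score after these values were seen. The highest listed scores among them were those of ABHD12 and of a peak of 3100 at EEF1A1, a translation elongation factor. The EEF1A1 peak lay 4788 bp downstream of a start and 116 bp from the next peak. A promoter peak of the gene also scored 3100. HMGA2, an architectural chromatin protein of development and tumours, had a peak of 8874 bp and a score of 2256.5, centred 9659 bp from a start, beside a promoter peak of 3100. RPSA and RPL37A, of the small and the large ribosomal subunit, had peaks scoring 2059.28 and 1946.87, centred 3483 and 6113 bp downstream of a start. At BBC3, which encodes the apoptosis inducer PUMA, a peak of 3448 bp scored 1167.27, against 221.29 for the promoter peak. COL6A2, a chain of collagen VI, had a peak of 2300.68, nearest to a start of the adjoining FTCD. These are exceptions, as 1077 of the 1752 (61.5%) scored below 100.

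Near-start intronic peaks wholly beyond 1 kb sat mostly in genes that also had a peak at a start. A peak midpoint within 1 kb of a start of the same gene was present for 1410 of the 1752 (80.5%), against 1271 of 1688 deep intronic peaks (75.3%), a difference of 5.18 points (2.41 to 7.95). Over all 2283 the share was 73.3%, a difference of -1.97 points from deep intronic peaks (-4.7 to 0.788). The peaks that reached a start, left out of the 1752, had a share of 49.7%, and no deep intronic peak reached a start. Of the 609 near-start intronic peaks without such a promoter peak, 267 themselves reached a start. The highest promoter peak of the gene scored above the intronic peak for 1287 of the 1410 (91.3%). Intronic peaks of the same gene were set against the same promoter peak. Among the 18337 coding genes with sequence at the required distance, 1142 of 10079 with a promoter peak (11.3%, interval 10.7 to 12) held a peak wholly beyond 1 kb, against 359 of 8258 without one (4.35%, 3.92 to 4.81). Genes with a promoter peak had more annotated starts (median 4 against 2) and about as much qualifying sequence (median 9.32 against 8.9 kb). Among genes with up to 8.21 kb of such sequence the shares were 9.27% with and 2.64% without a promoter peak. They were 9.38% with and 3.58% without at 8.21 to 15.5 kb, and 14.7% with and 7.58% without above 15.5 kb.

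These peaks also had close neighbours. The gap to the next peak was at most 5 kb for 1668 of 2283 near-start intronic peaks (73.1%), against 705 of 1688 deep intronic ones (41.8%), a difference of 31.3 points (28.3 to 34.2). A gap of at most 1 kb was found for 982 (43%), against 363 (21.5%). The next peak was a promoter peak for 46.3% of near-start intronic peaks and for 28.4% of deep ones, and another near-start intronic peak for 26.9% and 9.83%. Starts lie closer to the near-start peaks by the distance limits, so part of this follows from the choice.

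The 2283 peaks were spread over 1727 host genes, and 1340 of these (77.6%) held a single one. TXNRD1, the cytosolic thioredoxin reductase, held 7, the most of any gene, with scores of 60.02 to 233.98, below its promoter peak of 1572.52. Some of these, such as the peak scoring 143.61, were nearest to a start of EID3 and not of TXNRD1. TRIOBP, an actin-binding protein, held 6, where a peak of 9163 bp over alternative starts scored 1856.07 and the other 5 scored 62.89 to 199.85. AARS1, the cytosolic alanyl-tRNA synthetase, held 6 with scores of 79.2 to 288.44, below its promoter peak of 1926.61. Some of the AARS1 peaks, such as the one scoring 202.07, were nearest to a start of EXOSC6 instead. HNRNPC, a nuclear RNA-binding protein, held 6 with scores of 56.77 to 186.26, below its higher promoter peak of 327.79. KLC1, a kinesin light chain, held 5, where 1 peak that covered a start scored 2189.45 and the other 4 scored 64.35 to 122.92. None of the near-start intronic peaks in these 5 genes had the AP-1 core in the 200 bp at the midpoint. The share over all 2283 was 6.35%, too low for its absence from so few peaks to set these genes apart.

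KDM1A itself held no near-start intronic peak. PXN, which encodes the focal adhesion scaffold paxillin, held 4. The highest covered the canonical start (chromosome 12, 120699151 to 120704227) with a score of 1934.88, its midpoint 1844 bp into intron 1. A pair of further peaks lay in the same intron upstream of alternative starts, at 120665306 to 120671172 with a score of 1252.11 and at 120671850 to 120674400 with a score of 308.82. The fourth, in intron 6, covered an alternative start (120657832 to 120660946, score 193.19). The highest peak centred at a PXN start scored 113.19. Peaks centred in PXN exons scored up to 773.36, above the intronic peaks of 308.82 and 193.19. The scores of 1934.88 and 1252.11, the highest at this gene, belonged to peaks centred in introns.

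**Figure D3:**
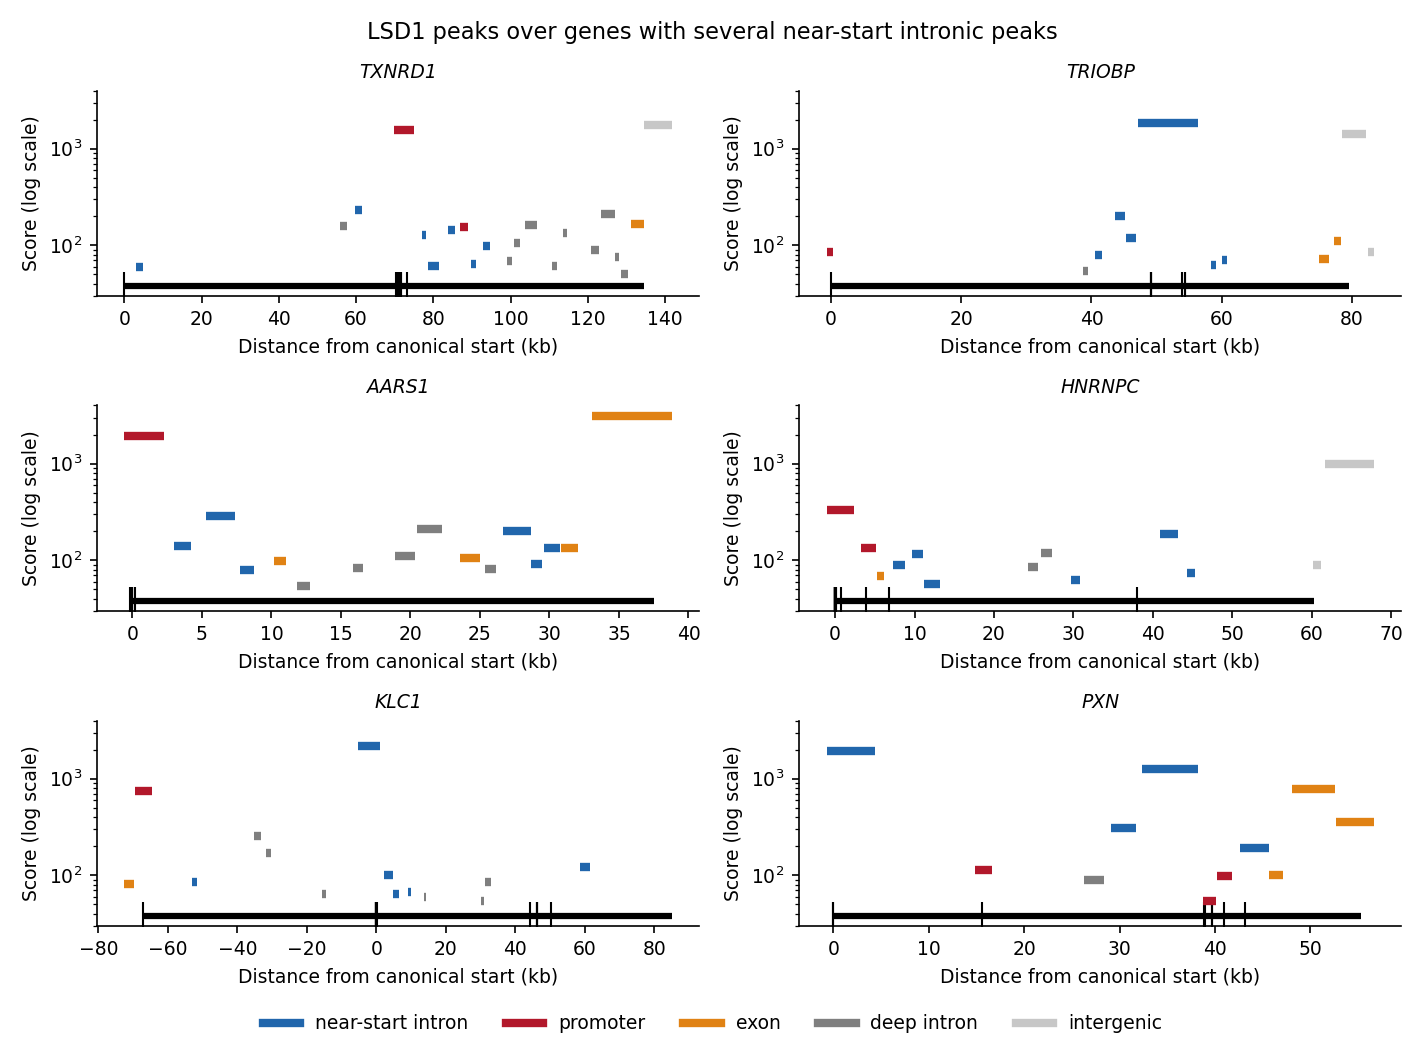
LSD1 peaks over the 5 genes with the most near-start intronic peaks and over PXN, by distance from the canonical start in kb (horizontal axis, transcription to the right) and the authors' score (vertical axis, log scale). Bars span each peak and are coloured by the position of the midpoint, whichever overlapping gene it belongs to; the black line is the gene and ticks on it are annotated starts, and at TXNRD1 and AARS1 the near-start intronic peaks (blue) all lie below the promoter peaks of 1572.52 and 1926.61 (red).

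Of the 18337 coding genes with qualifying sequence, 1891 (10.3%) held a near-start intronic peak and 1501 (8.19%) held one wholly beyond 1 kb. The 12 gene lists are described against these shares by counts alone, and since longer introns and more starts offer more room, the median qualifying sequence of each list is given beside the 9 kb of all genes. The lists are selections of genes, and they were chosen with earlier results of these data known.

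The listed cytosolic ribosomal protein genes stood highest, with 14 of 22 (63.6%, interval 40.7 to 82.8) on a median of 1.82 kb of qualifying sequence. A peak wholly beyond 1 kb was present in 8 of 22 (36.4%). The list of 27 such genes, 22 with qualifying sequence, is not the whole family. RPS12 and RPL12, named above, are not on it, so the share and its interval describe the list alone. RPL8 and RPS18 had peaks of 3100, each covering a start, and the RPS18 peak was 8574 bp wide (chromosome 6, 33238633 to 33247206). Ribosomal protein genes have many processed copies in the genome, and how reads shared with such copies were treated is not given in the sources used here.

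Genes of growth factor receptors and ERK feedback followed with 9 of 23 (39.1%, interval 19.7 to 61.5; median 10.7 kb), 6 of them with a peak wholly beyond 1 kb. DUSP5, a nuclear ERK phosphatase, lay under a peak of 19224 bp with a score of 3065.66 (chromosome 10, 112255112 to 112274335). MST1R, the receptor tyrosine kinase RON, had a peak of 2715.14 (chromosome 3, 49936104 to 49941874), and SPRED2, an inhibitor of RAS-ERK signalling, had 534.56. All 3 peaks reached a start.

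Focal adhesion and actin genes had 14 of 39 (35.9%, interval 21.2 to 52.8), on a median of 26.1 kb, well over that of all genes, and 11 with a peak wholly beyond 1 kb (28.2%). FLNA and PXN, described above, led with ITGA3, the integrin alpha 3 subunit that binds laminin, whose peak of 14267 bp scored 2240.2 (chromosome 17, 48131941 to 48146207). Among the other 11, named after their values were seen, peaks over ITGB4 (1390.4), ZYX (1258.38), SRC (1255.49) and VCL (872.68) reached a start, and those in MYH9 (53.29) and PTK2 (63.57) lay wholly beyond. ITGB4 is the integrin beta 4 subunit of hemidesmosomes, ZYX the adhesion protein zyxin, SRC a tyrosine kinase, MYH9 non-muscle myosin and PTK2 focal adhesion kinase.

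Genes of the LSD1 complexes had 9 of 29 (31%, interval 15.3 to 50.8; median 13.4 kb), and 7 of these had a peak wholly beyond 1 kb. Their scores were low, led by the NuRD subunits MBD3 (246.56) and MTA1 (224.62) and by ZNF217, a zinc finger protein of CoREST-type complexes (174.82). All 9 genes also had a promoter peak.

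The AP-1 and immediate early genes had 4 of 16 (25%, interval 7.27 to 52.4; median 3 kb). FOSL1, the FOS family member FRA-1, had a peak of 2656.18 (chromosome 11, 65662483 to 65668384), KLF4, a zinc finger factor, 2380.88 (chromosome 9, 110248667 to 110253197), and DUSP1, a phosphatase of p38 and JNK kinases, 1100.72 (chromosome 5, 172194388 to 172199767). In all 4 genes the highest peak reached a start, and 1 had a further one wholly beyond. The lists of glycolysis and hypoxia (5 of 21), TGF-beta and Hippo signalling (5 of 24), junctions and keratins (4 of 20) and the cell cycle (5 of 25) lay between 20% and 23.8%, with intervals that include 10.3%. Their median qualifying sequence was 8.99 kb for glycolysis and hypoxia, 11.2 kb for TGF-beta and Hippo signalling, 9 kb for junctions and keratins and 7.6 kb for the cell cycle. NDRG1, a stress-induced gene, led the first with 1893.35, ahead of the glycolytic enzyme genes ENO1 (410.27) and PFKFB3 (240.71). AJUBA, a LIM protein that binds LATS kinases, led the second with 857.43, ahead of SMAD3 (456.95), a transducer of TGF-beta signals, and the Hippo coactivator WWTR1 (147.91). KRT19, a simple-epithelial keratin, led the third with 1434.17, ahead of PKP3 (1148.31), a desmosomal plakophilin, and the tight junction gene CLDN4 (170.16). CCND1 led the cell cycle genes with 2788.92 under a peak of 10064 bp (chromosome 11, 69452719 to 69462782). MCM7, a helicase subunit, followed with 1185.26 and CDC25B, a phosphatase that activates cyclin-dependent kinases, with 591.24.

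Genes of EMT and invasion had 4 of 27 (14.8%, interval 4.19 to 33.7; median 9 kb) and genes of NF-kB and inflammation 3 of 21 (14.3%, 3.05 to 36.3; median 7.14 kb). CDH1, which encodes E-cadherin, had a peak of 2070 bp in intron 2 with a score of 232.96 (chromosome 16, 68775420 to 68777489), VIM, vimentin, one of 208.82 and TIMP2, a metalloproteinase inhibitor, one of 66.92. The chemokine gene CXCL2 had a peak of 2992.51 (chromosome 4, 74960860 to 74966421), IL6R, the interleukin-6 receptor, 862.23 and the chemokine gene CCL20 117.07. Of 22 neuronal and developmental genes 1 held a near-start intronic peak (4.55%, 0.115 to 22.8; median 8.47 kb): HOXA9, a homeobox factor, with 402.72.

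The sequence under near-start intronic peaks was far less rich in CpG than that of promoters. Median GC content of the 200 bp at the midpoint was 53.5% (interval 53 to 54) and the CpG observed-to-expected ratio 0.245, against 51% and 0.238 in deep intronic peaks and 67% and 0.805 in promoter peaks. All windows of 200 bp tiled over near-start introns, 1358883 in number, had medians of 43% and 0.198. Flanks at 5 kb had a GC content of 50.5% and a CpG ratio of 0.275, which was above that of the peaks. The flanks were taken wherever they fell, promoters, exons and other peaks included, so they are no measure of intron alone. In GC content the median member exceeded the mean of its 2 flanks by 2.75 points (2.25 to 3.25). A window with GC over 55% and a CpG ratio over 0.65 was found in 127 near-start intronic peaks (5.56%), against 67.7% of promoter peaks. These 127 had a median score of 208, against 89.3 for the other 2156.

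The AP-1 core was more frequent in near-start intronic peaks than in promoter peaks and less frequent than in deep intronic ones. It occurred in 145 of 2283 windows (6.35%, interval 5.39 to 7.43), against 162 of 1688 deep intronic windows (9.6%) and 172 of 10032 promoter windows (1.71%). The differences were -3.25 points from deep introns (-5.01 to -1.55) and 4.64 points from promoters (3.67 to 5.74). Tiled windows of near-start introns had it in 3.03%, and in 2.98% when weighted to the GC content of the peaks in steps of 5 points, which put the peaks at 2.13-fold. The share was 7.25% in peaks wholly beyond 1 kb and 3.39% in those that reached a start, a difference of 3.86 points (1.65 to 5.66). Along the distance from a start it was 5.51% at 1 to 2 kb, 5.11% at 2 to 3 kb, 6.99% at 3 to 5 kb, 7.2% at 5 to 7.5 kb and 6.76% at 7.5 to 10 kb, and it reached 11.9% in deep introns beyond 50 kb.

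The AP-1 core was concentrated at midpoints. In bins of 100 bp it occurred in 3.29% to 3.72% of near-start intronic peaks within 100 bp of the midpoint, and in 1.23% to 1.88% per bin at 1 to 2 kb from it. Deep intronic peaks had 4.74% to 5.15% at the centre, and promoter peaks 0.817% to 0.947%, below their own 1.2% to 1.73% at 1 to 2 kb. Among the peaks wholly beyond 1 kb, those in genes with no promoter peak had the core in 36 of 342 windows (10.5%). In genes with one it was 91 of 1410 (6.45%), a difference of 4.07 points (0.917 to 7.95). A promoter peak is counted by its midpoint, so genes without one could still have a peak that extends to a start. For 223 of the 342 no peak base lay within 1 kb of any start of the host. Of these 223, 24 had the core (10.8%). Over all near-start intronic peaks the shares were 46 of 609 (7.55%) without and 99 of 1674 (5.91%) with a promoter peak, a difference of 1.64 points whose interval of -0.579 to 4.23 includes 0. From the lowest to the highest of 4 groups of equal size by score, the share was 6.67%, 8.58%, 6.48% and 3.68%. Peaks that reached a start made up 55.5% of the highest group and 10.4% of the lowest, and their part in the difference was not tested.

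**Figure D4:**
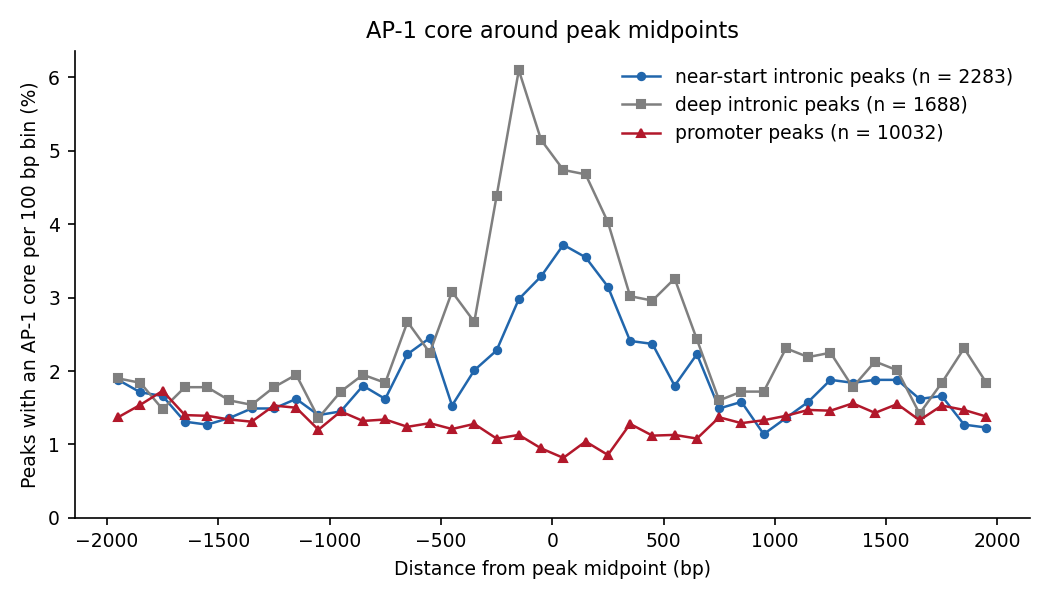
Share of peaks with an AP-1 core starting in each bin of 100 bp (vertical axis, %) by distance from the peak midpoint in bp (horizontal axis), for near-start intronic peaks (blue circles), deep intronic peaks (grey squares) and promoter peaks (red triangles). Near-start intronic peaks rise to 3.72% at the centre, below deep intronic and above promoter peaks.

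Among the other 17 motifs, 12 had a ratio to intron sequence of equal GC above 1, none as high as AP-1, and 5 a ratio below 1. Without weighting for GC, AP-1 stood at 2.1-fold over all tiled windows and was not the highest. CTCF then stood at 5.16-fold, SP/KLF at 3.11-fold, ETS at 2.74-fold and REST at 2.48-fold. TGTTTAC of FOXA factors occurred in 56 windows (2.45%) and AACCNGTT of grainyhead-like factors in 32 (1.4%), both 1.58-fold over GC-weighted tiled windows. Over all tiled windows without weighting, the ratios were 0.871-fold for FOXA and 1.08-fold for grainyhead-like factors. Flanks at 5 kb had these cores in 2.1% and 0.986%, within the peaks' intervals of 1.86 to 3.17 and 0.961 to 1.97. FOXA and grainyhead-like factors are regulators of epithelial enhancers. CAGCACC, the partial REST element, stood at 1.36-fold (7.84%), CCGGAAG of ETS factors at 1.3-fold (1.49%) and CACGTG at 1.25-fold (4.25%). GGGCGG of SP/KLF factors occurred in 12.4% of windows, 3.11-fold over all tiled windows and 1.07-fold when these were weighted to the GC of the peaks. The E-box CAGGTG, recognised by SNAIL and ZEB repressors that recruit LSD1, was found in 23.8% against 27.6% in GC-weighted windows. ETS and SP/KLF cores were much more frequent in promoter peaks, at 9.24% and 51.4%.

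The rest of the motifs lay between 0.789-fold and 1.37-fold of the GC-weighted windows. The CTCF core AGNGGGCGC stood at 1.37-fold from 20 windows. The RUNX core TGTGGTT stood at 1.24-fold and AGGAAGT of epithelial ETS factors at 1.31-fold. The YY1 core AAGATGG had 1.21-fold, and the C/EBP core TTGCNNAA had 1.15-fold. The GATA core AGATAAG was at 1.07-fold and the TEAD core CATTCCA at 0.985-fold. Over all tiled windows without weighting, RUNX stood at 1.01-fold, epithelial ETS at 1.28-fold and YY1 at 1.13-fold. C/EBP, GATA and TEAD then stood at 0.712-fold, 0.67-fold and 0.853-fold. The KLF core GGGTGTG, 1.62-fold over all tiled windows, was at 0.969-fold once these were weighted for GC. The lowest ratios were those of NRF1 with GCATGCGC (0.852-fold from 15 windows) and of NF-kB with GGGANTTCC (0.789-fold from 13). All motifs were searched on both strands, and a match is a description of the letters. For CTTCCGG and related elements that contain CpG, the windows were weighted to GC and not to CpG content. TGACTCA and the other short cores overlap longer elements, such as those of the CNC and BACH factors, which were not counted apart.

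**Figure D5:**
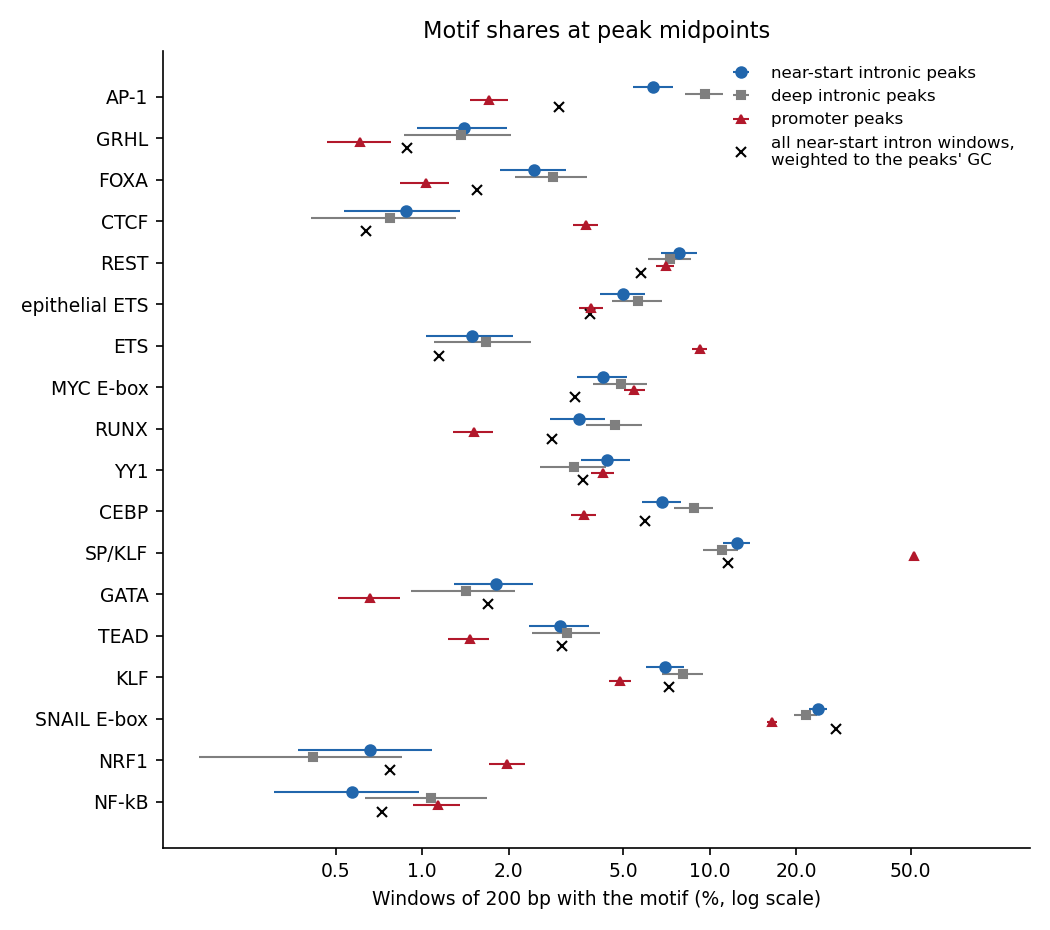
Share of windows of 200 bp with each motif (horizontal axis, %, log scale) in near-start intronic peaks (blue circles), deep intronic peaks (grey squares) and promoter peaks (red triangles), with exact binomial 95% intervals; crosses are all near-start intron windows weighted to the GC of the near-start intronic peaks. Motifs are ordered by the ratio of blue circle to cross, from AP-1 (2.13-fold) at the top to NF-kB (0.789-fold) at the bottom.

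Most near-start intronic peaks lay downstream of the nearest start (1691 of 2283, 74.1%), and the same held for deep ones (74.5%). By the canonical transcript of the host, 754 (33%) lay in intron 1, 295 (12.9%) in intron 2, 885 (38.8%) in later introns and 349 (15.3%) in none. The canonical start itself was within 10 kb for 62.3%. The nearest start belonged to a gene other than the host for 308 (13.5%). Peaks in intron 1 reached a start in 35%, against 18.2% in later introns, and had the AP-1 core in 7.96%, against 5.51%.

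Density per Mb of qualifying sequence was highest on chromosome 19 at 21.6 (interval 19.3 to 24.2, 302 peaks), followed by chromosome 16 at 16.2, chromosome 20 at 14.6 and chromosome 17 at 13. Apart from chromosome Y, which had none on 0.435 Mb, it was lowest on chromosome 13 at 1.85 (0.845 to 3.51, 9 peaks), with chromosome X at 3.89 and chromosome 18 at 3.9. Near-start intronic peaks made up 17.8% of all peaks on chromosome 19 and 3.53% on chromosome 13. Copy number of these cells was not analysed, and its part in the densities was not tested.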

How the data were processed

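The material was 1 LSD1 ChIP-seq library and 1 input library of PC-3M-luc cells. Reads from a HiSeq 2000 were aligned to hg19 by bowtie 2, per the labels' protocols. MACS 1.41, Bowtie2 and the builds hg19 and mm10 appear in the submitters' processing notes; settings, duplicate handling and the peak threshold are not given in the sources used here. The deposited list gives a score per peak, with a lowest value of 50. It was taken as LSD1 called against input and the score as the caller's transformed p-value, neither of which is stated. Its 24 chromosome names occur in GRCh37 and 0 peaks run past an end.

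Starts were those of protein-coding transcripts (78564 sites of 20163 genes, GENCODE 44 on GRCh37). Each midpoint went to the first class that fitted among promoter (a start within 1 kb), exon, near-start intron, deep intron and intergenic. The host is the gene around the midpoint with the nearest start. Motifs were counted in 200 bp at midpoints, and sequences were read from the GRCh37 genome. The code was tested on simulated data. Members and lists were chosen with earlier results of these data known. Named are the 15 top-scoring members, the 5 genes with most members, up to 3 genes per list by score, KDM1A and PXN, members at the limits, and for sequences the 6 top AP-1 peaks and 2 per further motif, none of them on chromosome 8, of which some are not reported here; other genes were added after values were seen. Alternatives were a score of at least 100, no base within 1 kb, canonical starts, an upper limit of 5 kb, removal of the widest 1%, windows of 500 bp and, added later, starts of all transcripts. Tools were samtools 1.23.1 and, under Python 3.11.15, matplotlib 3.10.9, numba 0.67.0, numpy 2.4.6, scipy 1.17.1, pandas 2.3.3 and pysam 0.24.0.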

Additional observations from a re-analysis of the deposited data

How the results depend on the processing

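No paired analysis was possible because ChIP and input had 1 library each, and no replicate could be left out. Of 50 alternative values, 23 stayed within the interval or margin of the reported one and 27 did not. At a score of at least 100 there were 1071 near-start intronic peaks, with a median score of 233, a width of 2481 bp, a GC content of 55%, a promoter peak in the gene for 58.5%, the AP-1 core in 4.95%, a density ratio to deep introns of 5.46 and 5.49% of coding genes holding one. With no base allowed within 1 kb of a start, the median score was 80.3, the width 1268 bp, the promoter peak share 80.5%, the density ratio 3.37 and the share of genes 8.19%. With canonical starts these were 107, 1530 bp, 59.3%, 4.93 and 9.67%. With an upper limit of 5 kb there were 1442 peaks, and the same quantities were 100, 1482 bp, 70.5%, 5.37 and 7.51%. In windows of 500 bp the AP-1 core was found in 14.9%. With the starts of all transcripts of coding genes, a setting chosen after seeing the data, the median score was 88.4 and the promoter peak share 80.4%. Removing the widest 1% of peaks moved none of the 8 values out of its margin. The causes of these shifts were not tested. The peak list gives no reads, so the depth that sets which weak peaks were listed is unknown.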

Other observations

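A small RNA gene lay within 500 bp of the midpoint of 25 near-start intronic peaks (1.1%), against 17 deep intronic ones (1.01%), a difference of 0.0879 points (-0.608 to 0.728). These 25 had a median score of 184 (interval 113 to 403). They included the wide peaks over the ribosomal protein genes RPS12, RPL12 and RPL27A, whose introns hold small nucleolar RNA genes (SNORA33 and SNORD100, SNORA65 and SNORA45). A peak of 1443 bp at RNU5A-1, a gene of the U5 spliceosomal RNA outside the canonical transcript of PARP16, scored 1709.67, against 212.32 at the PARP16 promoter (chromosome 15, 65587886 to 65589328). The intron of MCM7 that holds the microRNA genes MIR25 and MIR93 lay under a peak of 5437 bp with a score of 1185.26, and a peak at MIR196B, 3728 bp upstream of a HOXA9 start, scored 402.72.

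A start of a long non-coding RNA lay within 1 kb of the midpoint of 101 near-start intronic peaks (4.42%), against 4.38% of deep ones, a difference of 0.0401 points (-1.29 to 1.31). These 101 had a median score of 137 and a CpG-rich window in 16.8%.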
